A study of Ictalurus punctatus with 24 samples.

Results

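The C-type lectin cldc1 was followed through every library of a frass feeding trial in channel catfish, Ictalurus punctatus. It was chosen by its row, rna-XM_017469189.2, which is 1 of the 63022 features in each of the count tables, and it passed the count filter in both tissues. Frass is the residue left in the trays where insect larvae, here those of the black soldier fly, are reared. Fingerlings of the Marion strain were fed for 10 weeks on a control diet without frass (0 g per kg of feed), a low-frass diet (50 g per kg) or a high-frass diet (300 g per kg), in which frass took the place of part of the plant meals on an equal protein basis. Intestine and liver were taken from the same pools of fish, and each diet and tissue had 4 pooled libraries. The methods give 4 fish from an aquarium per pool and the sample labels give groups of 3. The labels do not say which stretch of the intestine was taken, and fish of other ages or strains were not part of the trial. A library is thus a pool of animals and of all the cell types in the tissue, so that fewer cells of a type and less RNA per cell cannot be told apart.

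C-type lectins share a fold that in many members binds sugars with the help of calcium. Some are secreted and some sit in the membrane of phagocytes, dendritic cells or endothelium, and in the gut and liver of vertebrates the family is best known for recognising sugars on the surface of microbes and for clearing glycoproteins. The sugar bound by the product of cldc1 and the cells that make it in catfish are not given in the sources used here.

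In the Coco_2.0 assembly cldc1 lies on chromosome 1 from 10165305 to 10170312, a span of 5008 bases with 1 annotated transcript. The annotation has 0 genes that overlap it. Its nearest neighbours are trim108, with a gap of 956 bases, and cops7a, with a gap of 1428 bases. Reads were assigned to transcripts, and reads in exons shared by transcripts of a gene can be lost, which a gene with 1 transcript avoids. Among the neighbours, trim108, also with 1 transcript, had 0 to 4 counts in an intestine library and 10 to 49 in a liver library, against 131 to 660 and 8595 to 23564 for cldc1 over the libraries compared. The genes setdb1b (3 transcripts), cops7a (2) and pianp (3) had at most 2 counts in any of these libraries.

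The 12 intestine libraries held 12534783 to 17371695 counts each, and the 12 liver libraries 10494755 to 15604418. At these depths counting alone gives cldc1 a relative error of 3.89% to 8.74% in an intestine library and of 0.651% to 1.08% in a compared liver library. The intestine libraries were cut into 2 clusters by all filtered features other than cldc1. Each held 6 libraries, with a median Pearson r of 0.970 within clusters and 0.891 between them. The cluster with the higher median of the anterior-like gut markers was named anterior-like, so the direction of that list was set by the naming. The summed normalised level of the anterior-like gut markers, such as the peptide transporter slc15a1b, was 15162 to 57106 CPM (counts scaled to library size) in the anterior-like cluster and 999 to 4037 in the posterior-like cluster, with 10 of 17 listed genes counted. Posterior-like markers, such as the endocytic receptor gene cubn, reached 6267 to 9513 CPM in the posterior-like cluster and 1553 to 9664 in the other, and the highest of these was control replicate 3, so the posterior list does not separate the clusters. Anterior-like libraries were control replicates 2 and 3, low-frass replicates 1, 2 and 4 and high-frass replicate 4. In the liver, the hepatocyte list held 150314 to 234884 CPM in the 10 libraries compared. The library labelled low-frass liver replicate 3 held 690 CPM of it and 8187 CPM of the posterior gut list, which goes against its label, and the study left it out along with high-frass liver replicate 3.

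In the control intestine, cldc1 had 202, 170, 176 and 161 counts in replicates 1 to 4. Scaled to library size with TMM factors within the tissue (normalised CPM), these were 10.96, 15.2, 11.6 and 11.4. Replicate 2 lay above the other replicates, and the mean was 12.3 ± 1.95 (SD, n = 4). In the low-frass intestine the 251, 333, 260 and 131 counts gave 18.5, 22.9, 13.2 and 9.12 normalised CPM. These straddled the controls, and their mean was 15.9 ± 6.04 (SD, n = 4). In the high-frass intestine the 545, 660, 448 and 305 counts gave 34.8, 38.2, 22.9 and 25.2 normalised CPM, with a mean of 30.3 ± 7.40 (SD, n = 4). Every high-frass library lay above every control library, a pattern that 122 of the 10401 features tested shared (1.17%). The high-frass libraries met the low-frass range at one point, where high-frass replicate 3 (22.87) fell just under low-frass replicate 2 (22.93). Of all features, 200 (1.92%) had the high-frass libraries wholly above the low-frass ones, and cldc1 was not among them. The coefficient of variation across the intestine libraries of a diet was 15.9% for the control, 37.9% for low frass and 24.5% for high frass, so they varied by more than the counting error.

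**Figure D1:**
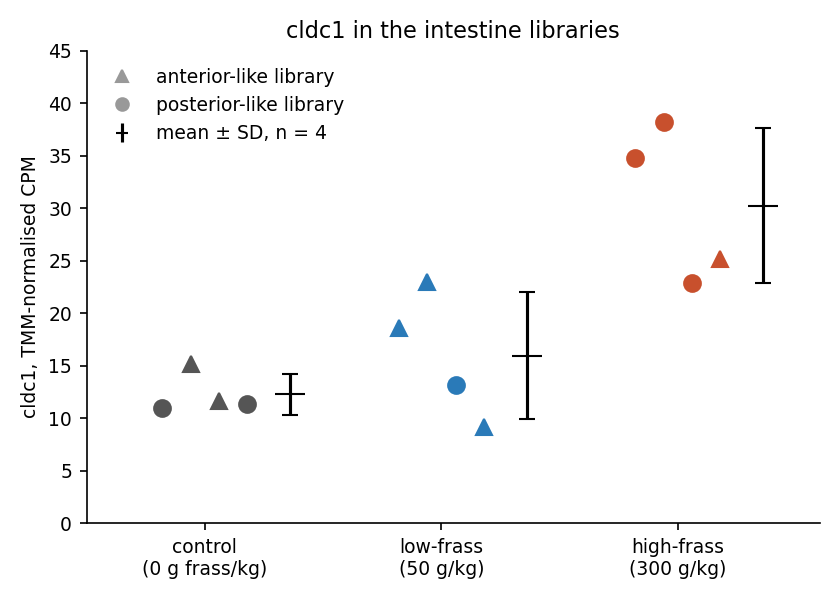
TMM-normalised CPM of cldc1 (vertical axis) in each of the 12 intestine libraries by diet (horizontal axis), with triangles for anterior-like and circles for posterior-like libraries and bars for the mean and SD of 4 libraries. The control libraries sit between 10.96 and 15.2, the high-frass libraries between 22.9 and 38.2, and the low-frass libraries spread from 9.12 to 22.9.

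The comparison of each frass diet with the control asked whether frass moved the gene in that tissue. With high frass the level of cldc1 in the intestine was 2.46-fold that of the control (95% interval 1.60 to 3.79). On the log2 scale the difference was 1.30 with a standard error of 0.28. It ranked 5 of 10401 by p (unadjusted p = 0.00066), but the adjusted p from edgeR was 0.998, and the gene did not pass the threshold of an adjusted p under 0.05 with a fold change above 2. No feature did in this fit (0%), while 295 had an unadjusted p under 0.05. DESeq2 called 2 features with the 3 diets in 1 fit, where cldc1 had an adjusted p of 0.0511. On the 2 groups alone DESeq2 called 10 features, of which cldc1 was one, with a log2 fold change of 1.31 and an adjusted p of 0.000793. An exact permutation test of the 8 libraries gave p = 0.0286, two-sided, the smallest p that 4 against 4 allows. The gene was chosen with this contrast already known, so these p-values are not independent evidence.

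With low frass the log2 fold change in the intestine was 0.38 (standard error 0.28, 95% interval -0.24 to 0.99), with an adjusted p of 0.9996 from edgeR and an exact permutation p of 0.4. The interval spans a small decrease and an increase close to the fold change required of a call. In this comparison edgeR called 0 of the 10401 features (0%), with 108 at an unadjusted p under 0.05, and DESeq2 called 1. Between the frass diets, high minus low was 0.92 (standard error 0.28, adjusted p = 0.567 from edgeR, exact permutation p = 0.0571). Here too edgeR called 0 features (0%), 891 had an unadjusted p under 0.05, and DESeq2 called 13 with the 3 diets in 1 fit and 20 on the 2 groups. Ordered by their means, the intestine groups ran control, low-frass, high-frass. The first neighbours in that order did not differ beyond their spread. The ranges of low frass (9.12 to 22.93) and high frass (22.87 to 38.2 normalised CPM) met, so these neighbours were not fully apart either.

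In both clusters of intestine libraries cldc1 was higher with high frass than in the controls, in the anterior-like cluster by a single library. In the posterior-like libraries the controls had 10.96 and 11.4 normalised CPM, the single low-frass library 13.2, and the high-frass libraries 34.8, 38.2 and 22.9. The high-frass mean was 2.86 times the control mean there. In the anterior-like libraries the controls had 15.2 and 11.6, the low-frass libraries 18.5, 22.9 and 9.12, and the single high-frass library 25.2, or 1.88 times the control mean. Without TMM factors that library had 19.1 CPM, above these controls (13.6 and 10.3) but below low-frass replicate 2 (21.1). The normalised level itself overlapped between clusters, at 17.1 ± 6.30 in the anterior-like and 21.9 ± 12.2 in the posterior-like libraries (SD, n = 6 each), and 3 of the 6 posterior-like libraries were high-frass. With the cluster as a term in the fit high frass differed from the control by 1.34 (log2 fold change, standard error 0.29, edgeR adjusted p = 0.734). The pool codes begin with A or B, letters that the labels do not explain. Replicates 1 and 2 carry A and replicates 3 and 4 carry B in every diet, and within them the high-frass to control ratio was 2.79 (36.5 against 13.1 normalised CPM) and 2.09 (24.02 against 11.5).

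On the TMM-normalised scale, libraries of both frass diets differed by the same letter. In the low-frass intestine the A pools had 18.5 and 22.9 normalised CPM and the B pools 13.2 and 9.12, so that the A pools lay above all 4 controls and 1 of the B pools lay below all of them. In the high-frass intestine the A pools had 34.8 and 38.2 and the B pools 22.9 and 25.2, while in the controls the B pools (11.6 and 11.4) lay between the A pools (10.96 and 15.2). Without TMM factors the low-frass letters overlapped, at 14.7 and 21.1 CPM in the A pools and 15.0 and 7.54 in the B pools. The high-frass A pools (40.8 and 46.6 CPM) stayed above the B pools (26.5 and 19.1). On that scale the control A pools (14.4 and 13.6 CPM) also lay above the B pools (10.3 and 12.5). With 2 libraries on each side these splits were not tested.

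On the TMM-normalised scale the summed endothelial markers were higher in all 4 high-frass libraries than in any control. The summed pan-leukocyte markers were so in the 3 posterior-like ones. The gene stab1 held the largest part of the first sum and itgb2 nearly all of the second. Of all features tested in the intestine, 1.17% had every high-frass library above every control library. The endothelial list (5 of 6 listed genes found, all 5 counted) summed to 94.7 to 137 normalised CPM in the control intestine and 102 to 154 in that of the low-frass diet. The high-frass range, 158 to 204, overlapped neither. Without TMM factors it did overlap the control range, at 149 to 248 CPM against 89.6 to 179. The most abundant gene of the list was stab1, with a mean of 74.0 CPM over the intestine libraries beside 9.39 to 25.5 for the others. Its mean normalised CPM was 54.9 in the control and 107 with high frass. Of the listed genes, the scavenger receptors stab1 and stab2 had log2 fold changes of 0.96 and 0.98 with high frass (unadjusted p = 0.00184 and 0.0125, adjusted p = 0.998 from edgeR). The vessel markers cdh5, kdrl and tie1 had 0.17, 0.33 and 0.40 (unadjusted p = 0.552, 0.299 and 0.0960 from edgeR). The macrophage and dendritic list (9 of 10 genes counted) overlapped between diets, at 967 to 1813 normalised CPM in the control and 1022 to 1977 with high frass. The pan-leukocyte list (4 of 5 genes) ran from 42.3 to 71.1 in the control. With high frass it had 122, 80.7 and 117 in the posterior-like libraries, above every control, and 42.0 in the anterior-like library, below every control. Nearly all of this sum was itgb2, with a mean of 70.4 CPM over the intestine libraries beside at most 1.65 for any other feature listed. With high frass itgb2 had a log2 fold change of 0.60 (unadjusted p = 0.0995, adjusted p = 0.998 from edgeR). The neutrophil and other granulocyte list (4 of 7 genes) overlapped, at 74.8 to 299.6 and 106 to 396. The T-cell list (4 of 7 genes) overlapped too, at 10.3 to 46.9 and 14.9 to 65.7, as did the B-cell list (3 of 6 genes) at 1.16 to 4.02 and 1.57 to 6.69. The erythrocyte list (2 of 5 genes found) had no count. Reads in exons shared by the transcripts of a gene can be lost, so listed genes with more than 1 transcript can be missing from these sums. The part of any of these cell types in the cldc1 values was not tested.

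Hepatocyte markers were counted in every gut library. Their list summed to 5.30 to 28.3 CPM in the control intestine. Its range was 7.37 to 134 under low frass and 15.0 to 168 under high frass, and over all diets this was 0.00266% to 0.0846% of its liver level. If the ratio of cldc1 to that list were fixed at its liver value, such an amount would go with at most 0.77 CPM of cldc1, or 0.236% to 2.90% of the cldc1 found in a library. Most of the hepatocyte list was hpxa, with a mean of 156899 CPM over the compared livers beside at most 13215 for any other listed gene. The pancreas acinar list (3 of 8 listed genes found, all 3 counted) held 25549 to 53417 CPM in those livers. In the gut it held 12.8 to 28.0 CPM in the posterior-like libraries. It held 17.2 to 11498 CPM in the anterior-like ones, with the most in high-frass replicate 4. Whether the ratio of cldc1 to the hepatocyte list holds, and the part of liver or pancreas RNA in the cldc1 values, was not tested.

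In the liver the gene was far more abundant. The control livers had 14752, 9011, 9827 and 12840 counts of cldc1, or 1222, 612, 630 and 851 CPM without TMM factors. The control intestine on that scale had 14.4, 13.6, 10.3 and 12.5 CPM. The mean was 65.4 times as high in the liver, and the lowest control liver was 42.6 times the highest control intestine. Over all diets the lowest compared liver library was still 13.1 times the highest intestine library, so the tissues did not overlap. In a fit of the 8 control libraries the log2 fold change of liver over intestine was 8.19 (standard error 0.47, 95% interval 7.13 to 9.24, adjusted p = 8.30e-07 from edgeR), and 1841 of 9116 features were called higher in liver (20.2%). The size of the difference rested on the scaling. TMM over both tissues gave the intestine libraries factors of 1.85 to 2.58 and the livers 0.432 to 0.530, and without these factors, an alternative chosen after seeing the data, the log2 fold change was 6.03.

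**Figure D2:**
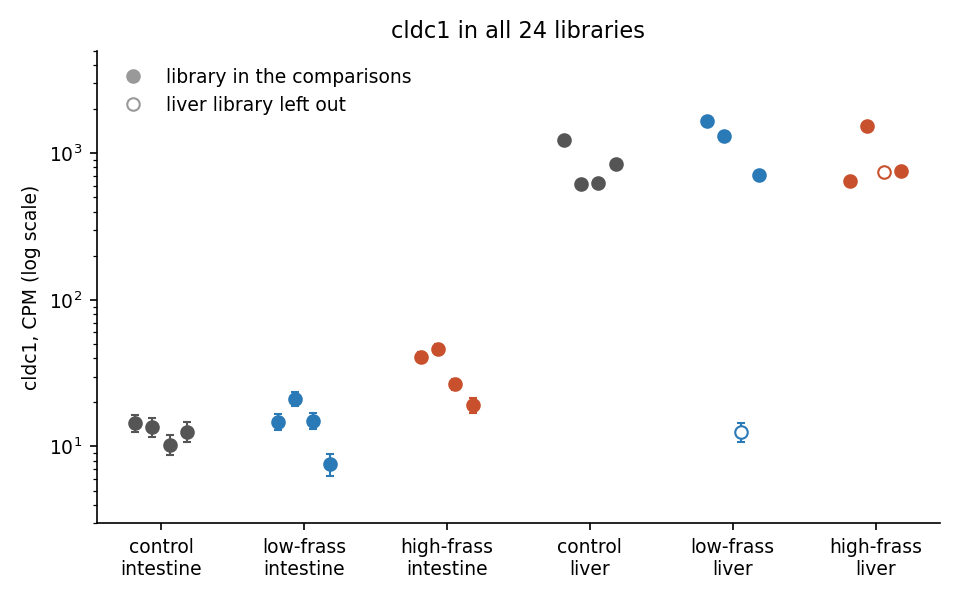
CPM of cldc1 without TMM factors (vertical axis, log scale) in all 24 libraries by diet and tissue (horizontal axis), with 95% Poisson intervals for counting error and open circles for the liver libraries left out. The compared livers lie between 612 and 1661 CPM and the intestines between 7.54 and 46.6, and the open low-frass liver point at 12.5 lies among the intestines.

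Within the liver the diets overlapped. The control livers had 1301, 648, 570 and 964 normalised CPM in replicates 1 to 4, a mean of 871 ± 334 (SD, n = 4). Low-frass replicates 1, 2 and 4 had 1532, 1205 and 685, a mean of 1141 ± 427 (SD, n = 3). High-frass replicates 1, 2 and 4 had 752, 1496 and 714, a mean of 987 ± 441 (SD, n = 3). In each diet the highest pool had over 2 times the level of the lowest, and the coefficient of variation of 37.5% to 44.7% was many times the counting error.

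The log2 fold changes in the liver were 0.39 for low frass (standard error 0.37, 95% interval -0.41 to 1.19), 0.18 for high frass (standard error 0.37, interval -0.62 to 0.99) and -0.21 for high against low frass (standard error 0.40, interval -1.07 to 0.66). Adjusted over all features in edgeR, p was at least 0.979, and the exact permutation p was 0.4, 0.743 and 0.9, where the smallest possible were 0.0286, 0.0286 and 0.1. The order of means was control, high-frass, low-frass, and no neighbours in it differed beyond their spread. In these comparisons edgeR called 0 of 7213 features (0%), and 194, 374 and 169 had an unadjusted p under 0.05. DESeq2 on the 2 groups called 0, 6 and 10. The sign of the high-frass difference rested on replicate 2, without which it was -0.25, and that of the high against low difference on low-frass replicate 1, without which it was 0.07.

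The liver libraries left out by the study had 178 counts (12.5 CPM) in low-frass replicate 3 and 7811 counts (744 CPM) in high-frass replicate 3. The first value lay in the range of the gut, where the intestine library of the same pool had 15.0 CPM, and across all filtered features the pair had a Pearson r of 0.964. That intestine library is posterior-like, and the r with the other 5 posterior-like libraries was 0.949 to 0.970, so that the value does not single out the pool, while the 6 anterior-like ones gave 0.886 to 0.921. High-frass replicate 3 lay inside the range of the livers. With both put back the low-frass log2 fold change was -0.02 (standard error 0.99) in place of 0.39, and the high-frass one 0.20.

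**Figure D3:**
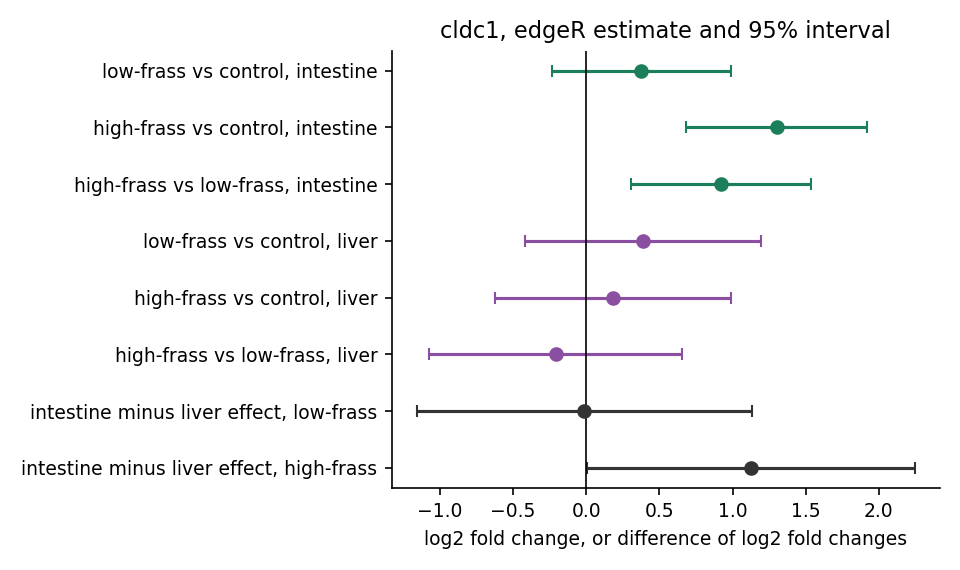
Log2 fold changes of cldc1 from edgeR with 95% intervals (horizontal axis) for the 6 diet comparisons, with the difference between the intestine and liver effects in the bottom rows. The high-frass intestine at 1.30 and the high against low-frass intestine at 0.92 have intervals above 0, as has the high-frass difference between tissues at 1.13, and each liver interval spans 0.

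Whether frass acted differently in the tissues was tested as the intestine effect minus the liver effect. For high frass it was 1.13 on the log2 scale (standard error 0.54, 95% interval 0.01 to 2.25, unadjusted p = 0.0486, adjusted p = 0.99996 from edgeR). For low frass it was -0.01 (standard error 0.55, unadjusted p = 0.983). Its sign turned without control intestine replicate 2, low-frass intestine replicate 3 or 4, control liver replicate 2 or 3, or low-frass liver replicate 1 or 2, and the values without 1 library ran from -0.27 to 0.24. Among 10895 features edgeR called 0 for either diet (0%), with 317 (low) and 459 (high) at an unadjusted p under 0.05, and DESeq2 called 1 and 4. Without control liver replicate 1 the high-frass value was 0.88, and without high-frass liver replicate 2 it was 1.54. The fit took the intestine and liver of a pool as independent.

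Pools with more cldc1 in one tissue were not clearly those with more in the other. Over the 10 pools with both tissues compared, and with each diet's mean removed, the Pearson r of log2 levels was 0.46 (exact permutation p within diets = 0.271) and Spearman's rho was 0.38 (p = 0.355, by the same exact permutation). Adjusted over these 2 tests by the Benjamini-Hochberg method, both exact permutation p-values were 0.355. Without removing the diet means r was 0.30 and rho 0.297. With the diet means removed and without the 2 pools farthest from the median in the intestine, r was 0.22. High-frass replicate 2 had the highest level of its diet in both tissues (38.2 and 1496 normalised CPM), and control replicate 1 had the lowest intestine (10.96) and highest liver (1301) of its diet. Without TMM factors control replicate 1 instead had the highest intestine level of its diet, at 14.4 CPM.

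**Figure D4:**
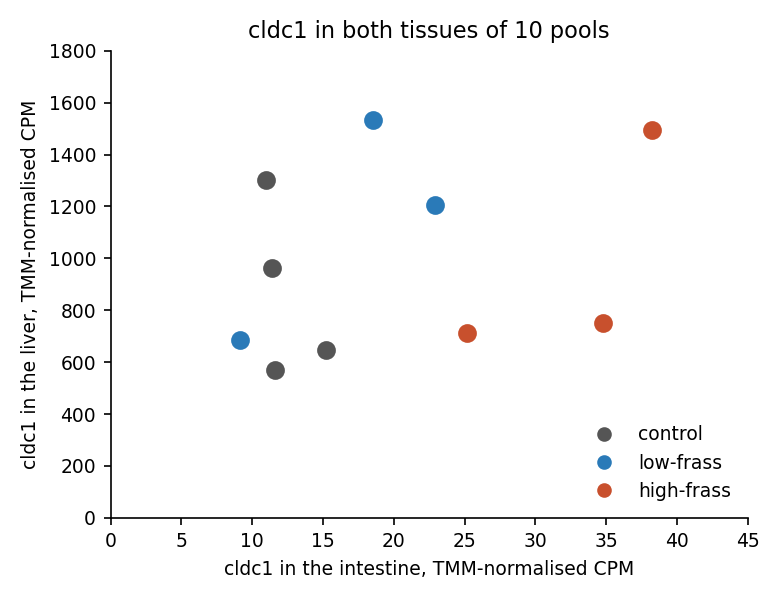
TMM-normalised CPM of cldc1 in the intestine (horizontal axis) and in the liver (vertical axis) of the 10 pools with both tissues compared, coloured by diet. The high-frass pools lie to the right, at 25.2 to 38.2 in the intestine, while in the liver the diets share the range from 570 to 1532.

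The features most like cldc1 over the 12 intestine libraries were taken by Pearson r of log2(normalised CPM + 0.5) among 9212 features with a mean of at least 1 CPM, as a description. All of these points share the same libraries, diets and scaling, and the 95th percentile of r was 0.46. The highest were LOC108266361 (0.88), LOC108275981 (0.87), ttc17 (0.84), stab1 (0.83) and dhrs13a.3 (0.81), and 6 features had r over 0.8. The gene stab1 encodes stabilin-1, a scavenger receptor of sinusoidal endothelium and some macrophages. In the control intestine it had 52.0, 66.7, 52.1 and 48.7 normalised CPM, with low frass 40.3, 81.2, 46.2 and 52.2, and with high frass 94.6, 133, 81.6 and 118. The high-frass libraries thus lay above all others for stab1, and the low-frass library highest in it, replicate 2, was also the highest in cldc1. Of all features tested, 1.17% had every high-frass library above every control and 1.92% above every low-frass library. As stab1 was picked by its r with cldc1 over these same libraries, its order by diet is no separate evidence. The uncharacterised LOC108266361 had group means of 208 ± 12.6, 233 ± 54.8 and 297 ± 51.6 normalised CPM (SD, n = 4 each) in the order control, low-frass, high-frass. For dhrs13a.3 1 of 4 annotated transcripts is meant.

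**Figure D5:**
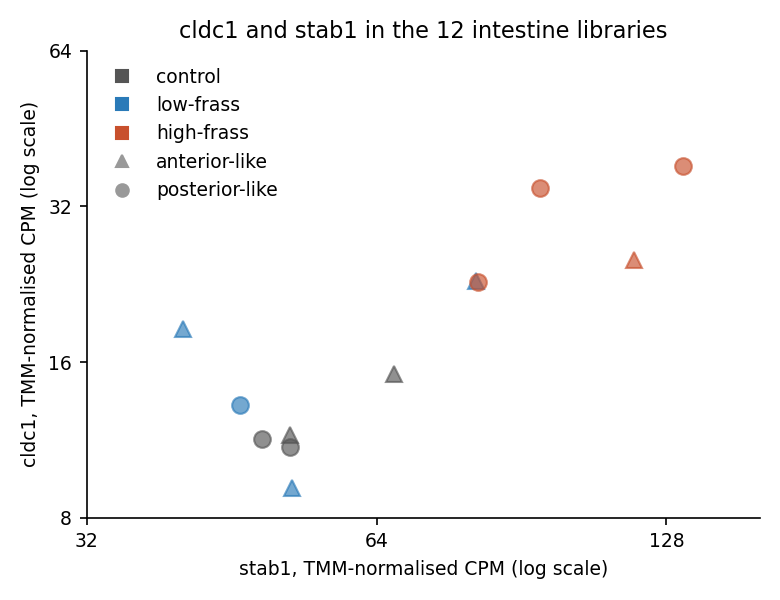
TMM-normalised CPM of stab1 (horizontal axis, log scale) and of cldc1 (vertical axis, log scale) in the 12 intestine libraries, coloured by diet, with triangles for anterior-like and circles for posterior-like libraries. The high-frass libraries lie at 81.6 to 133 for stab1 and 22.9 to 38.2 for cldc1, and low-frass replicate 2 falls almost on the lowest of them.

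The features most opposed to cldc1 were the kinase gene mos (r of -0.85), zgc:65894 (-0.81), napba (-0.81), itm2ca (-0.80) and tppp2 (-0.79), all with lower means with high frass. As these were picked by their r with cldc1 over the same libraries, their order by diet is no separate evidence. For zgc:65894 the means were 13.2 ± 1.62 in the control, 13.3 ± 3.35 with low frass and 7.60 ± 1.87 with high frass (normalised CPM, SD, n = 4 each). After the diet and cluster means were taken out, the highest r belonged to vtna (0.91), txnrd2.2 (0.89), asphd2 (0.88), LOC108257597 (0.87) and LOC108271825 (0.86), none of which was among the 5 most alike before. The next was LOC108266361 (0.86), the feature most like cldc1 before, and the other 4 of those had 0.68 (LOC108275981), 0.54 (ttc17), 0.50 (stab1) and 0.57 (dhrs13a.3). Before the means were taken out, r was 0.18 for vtna, 0.23 for txnrd2.2, 0.17 for asphd2, -0.21 for LOC108257597 and 0.02 for LOC108271825. They were picked as the highest of 9212 features over 12 libraries, so their r is a description only. The opposed features kept an r of -0.75 (mos) to -0.49 (zgc:65894). The values of txnrd2.2 and asphd2 are for 1 of 2 annotated transcripts. The gene vtna encodes vitronectin, a plasma glycoprotein made mainly by the liver, and had a mean of 2.56 normalised CPM in the intestine and 996 in the liver. In control intestine replicates 1 and 4 it had only 3 counts each, and the part of liver RNA in its values was not tested.

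Other C-type lectin genes gave a background for the single row. The list held 70 features of 28 genes by symbol, of which 58 features had no count in any library and 9 were tested in the intestine. Of the 28 genes 10 have 1 annotated transcript, and each of the 9 tested features is the only transcript of its gene. Reads in exons shared by transcripts can be lost, so a feature without a count need not mean a gene without expression. With high frass all 9 had a log2 fold change above 0, from 0.06 in thbd to 1.001 in sele, with a median of 0.41 beside -0.004 over all features, of which 49.4% were above 0. None of the 9 was called by edgeR, nor was any of the 10401 features (0%). Of the 9, 2 had an unadjusted p under 0.05, beside 295 of the 10401 features. The gene sele encodes the endothelial adhesion molecule E-selectin and had the lowest mean of the 9 in the intestine, at 1.46 normalised CPM. Its change had a standard error of 0.42 (unadjusted p = 0.0347, adjusted p = 0.998 from edgeR). The other with an unadjusted p under 0.05 was mrc1b, which encodes a macrophage mannose receptor and is named after its values were seen (0.76, standard error 0.30, unadjusted p = 0.0269, adjusted p = 0.998 from edgeR). With low frass 5 were above 0 and 4 below, with a median of 0.02, beside 54.2% of all features above 0 and a median of 0.028. For the genes with the most counts per library the differences with high frass were 0.32 for ly75 (the endocytic receptor DEC-205), 0.12 for cd302 and 0.46 for the scavenger collectin colec12. Their standard errors were 0.23 to 0.33.

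In the liver 6 of 9 members of the same list were above 0 for high frass (median 0.13), where 48.4% of all features were above 0 with a median of -0.012. For low frass 8 of 9 were above 0 (median 0.16), beside 47.7% of all features and a median of -0.016. In either comparison edgeR called none of the 9, nor any of the 7213 features (0%). Between tissues, with TMM over both, 4 of the 9 were called higher in the control liver (20.2% of all features) and 3 lower (30.5% of all features). The size of these differences rested on the scaling, as for cldc1. Without TMM factors, the means in the control intestine and control liver were close for clec14a (9.35 and 9.51 CPM) and sele (1.13 and 1.30 CPM). They were 15.4 and 26.6 CPM for colec10 and 126 and 331 CPM for cd302, and all of these genes were among the 4. The collectin gene colec10 was higher in liver by 2.91 (standard error 0.36) and cd302 by 3.54 (standard error 0.30), while ly75 was lower (-1.13, standard error 0.28), all on the log2 scale with adjusted p from edgeR of 0.00593 or less. The tissue difference of cldc1 was larger than that of any of these 9. Lectins of other families, such as galectins and intelectins, had 14 of 24 features tested. With high frass 5 were above 0 and 9 below in the intestine (median -0.08), where the abundant galectin gene lgals2b had -0.73 (standard error 0.42) and the calreticulin gene calr3b 0.15 (standard error 0.72). In the high-frass liver 12 of 13 were above 0 (median 0.48 beside -0.01 over all features) and none was called by edgeR, with 0.10 for calr3a and 0.56 for the intelectin gene itln3. The largest of these was 1.13 for mlec, which encodes malectin and is named after its values were seen (standard error 0.35, unadjusted p = 0.00743, adjusted p = 0.934 from edgeR). It was the single one of the 13 with an unadjusted p under 0.05, beside 374 of the 7213 features.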

How the data were processed

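Each deposited table, 1 per tissue, holds the raw counts of 12 libraries. The authors trimmed the reads (Trimmomatic 0.38), aligned them to Coco_2.0 (STAR 2.7.8a) and counted exons by parent transcript (HTSeq 0.9.0), without strand and in union mode; no normalization or filter was applied to these counts. Counts were tested in R 4.3.3 with edgeR 4.0.16 (quasi-likelihood F test, TMM, default filter with a minimum count of 10, 1 fit per tissue over 3 diets, Benjamini-Hochberg adjustment), and DESeq2 1.42.0 was an alternative. The standard error is the log2 fold change over the root of F. Permutation tests used log2(normalised CPM + 0.5). The fit was tested on simulated data. Counting intervals cover counting error only. The pools are separate aquaria by the methods. Genes named beside cldc1 are its nearest neighbours in r (5 each), the most counted lectins, the lectins with the lowest and highest change, and the adjacent genes. Single genes of the marker lists (the endothelial ones, itgb2, hpxa and a gut transporter and receptor), mrc1b, clec14a and mlec lie outside this rule and were named after their values were seen. The gene and all lists were chosen with earlier results of these data known. From the lectin list, 21 genes caught by symbol prefix alone, such as selenoproteins, were removed by name. Symbols came from the RefSeq annotation of Coco_2.0, which 60482 features matched. The alternatives were other tools, scalings, filters, blocks and left-out libraries. Reads and sequences were not used here.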

Additional observations from a re-analysis of the deposited data

Results flagged for a closer look

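In the control intestine, replicate 2 stood apart from the other replicates, with 15.2 normalised CPM of cldc1 where the rest had 10.96 to 11.6. Without TMM factors these replicates had 14.4, 13.6, 10.3 and 12.5 CPM in order, and replicate 2 did not stand apart. Among the 4 high-frass livers, on the plain CPM scale, replicate 2 stood apart at 1540 CPM where the rest had 649 to 755. The rest include replicate 3, which the study removed for a low transcript integrity score and which the main liver fits leave out. By chance about 1 in 20 groups shows such a gap.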

How the results depend on the processing

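The high-frass difference of cldc1 in the intestine kept its direction in all 20 alternatives, from 1.19 to 1.44 on the log2 scale, with the adjusted p running from 0.000793 to 0.99998. DESeq2 on the 2 groups made it a call (1.31). The replicate number as a block, which the labels do not explain, gave 1.27 (standard error 0.22). Same-numbered libraries did not deviate together (intestine r of -0.675 to 0.492, liver r of -0.20 to 0.289). In the liver, this replicate block turned high frass against control to -0.0102 and gave 1 call for high against low frass. All 12 liver libraries turned low frass against control to -0.0175 and high against low frass to 0.22, and all 24 libraries turned the low-frass interaction to 0.40. Both sets put back the liver libraries left out. Of these, low-frass replicate 3 had 12.5 CPM of cldc1, beside 711 to 1661 in the other low-frass livers. Leaving out 1 library gave ranges of -0.25 to 0.45 for high frass and -0.64 to 0.072 for high against low frass in the liver, and of -0.27 to 0.24 for the low-frass interaction. The other ranges without 1 library were 1.19 to 1.44 for high frass, 0.15 to 0.55 for low frass and 0.76 to 1.16 for high against low frass in the intestine, 0.11 to 0.65 for low frass in the liver, 7.94 to 8.34 between tissues and 0.88 to 1.54 for the high-frass interaction. The cause of these changes was not tested.

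Counts of called features moved from 0 with DESeq2. With the 3 diets in 1 fit they were 1 for low frass, 2 for high frass and 13 for high against low frass in the intestine, and 5 for high frass and 1 for high against low frass in the liver. On the 2 groups they were 1, 10 and 20 in the intestine and 6 and 10 in the liver. Without a count filter the liver had 60 for low frass, 133 for high frass and 71 for high against low frass. Between tissues the count moved from 4622 to 7848 without TMM factors. The counting error of cldc1, at most 8.74% in the intestine and 1.08% in the compared livers, was below its spread over pools in each diet (at least 15.9% and 37.5%), and the effect of depth on the intervals was not tested.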
